A study of Mus musculus with 20 samples.

Results

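Cytokine receptors and the signaling genes beneath them were examined in brains from *Winnie* mice, whose colon is inflamed, and in brains from C57BL/6 mice. The set holds 10 of the 17211 genes in the deposited table, chosen by name as routes by which circulating cytokines of colitis can act on the brain: the receptor genes *Il1r1*, *Tnfrsf1a*, *Il6ra*, *Il6st* and *Osmr*, the transcription factor gene *Stat3*, the feedback inhibitor genes *Socs3* and *Nfkbia*, and the adhesion molecule genes *Icam1* and *Vcam1*. All 10 were measured in every brain. *Winnie* mice carry a missense mutation of the mucin gene *Muc2* and develop colitis without any added agent; no inducer or drug is named for either group. RNA came from brain samples of 10 *Winnie* and 10 C57BL/6 mice aged 14 weeks from a shared breeding colony, and each group had 5 mice labelled female and 5 labelled male. These numbers are larger than those given in the study's methods for brain sequencing, and the sources used here do not name which samples those were, so all were used. Values are CPM, the reads of a gene scaled to the same total in each brain.

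Interleukin-1 and tumor necrosis factor bind *Il1r1* and *Tnfrsf1a* receptors and release NF-kappaB from its inhibitor, the product of *Nfkbia*, which NF-kappaB itself induces. Interleukin-6 binds the *Il6ra* product and oncostatin M binds the *Osmr* product, and both signal through the shared subunit encoded by *Il6st*, JAK kinases and STAT3, which induces the inhibitor gene *Socs3*. In the brain, endothelial cells and glia carry many of these receptors, and inflamed endothelium displays ICAM1 and VCAM1, to which leukocytes adhere.

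Promoter sequence was read because STAT3 induces *Socs3* and NF-kappaB induces *Nfkbia*. Of the matches to the STAT motif or the kappaB consensus, 4 are shown. RefSeq (GRCm38.p6) gave a start site for 9 of the 10 genes and 10 windows of 250 bases before the start, with 2 for *Il1r1*. The STAT motif TTCNNNGAA, searched on both strands, lay in 3 windows, those of *Tnfrsf1a*, *Socs3* and *Icam1*, and in 7.02% of 32851 windows of the same length over all promoters searched. The kappaB consensus, searched on both strands, lay in 2 windows, those of *Nfkbia* and the second *Il1r1* start, and in 3.90% of all windows. The glucocorticoid half-site AGAACA lay in 2 windows, those of *Stat3* and the second *Il1r1* start, and in 16.1% of all windows. A match describes these letters alone and was not tested as a binding site. Only exact matches were counted, so a window without one may still hold a stretch that differs in a letter. The sequences below run 5′ to 3′ on the strand of the gene, with the match in capitals. The *Nfkbia* match, a kappaB consensus on the opposite strand, lies 29 to 20 bases before the start in chr12:55492648-55492897 (minus strand). The *Icam1* STAT match lies 42 to 34 bases before the start in chr9:21015690-21015939 (plus strand). Short stretches are given for *Socs3* (chr11:117969502-117969530, minus strand, match 154 to 146 bases before the start) and *Tnfrsf1a* (chr6:125349473-125349497, plus strand, match 244 to 236 bases before the start). These starts are those of RefSeq. Both short stretches lie inside the gene coordinates given below from GENCODE, which begin farther upstream.
Nfkbia: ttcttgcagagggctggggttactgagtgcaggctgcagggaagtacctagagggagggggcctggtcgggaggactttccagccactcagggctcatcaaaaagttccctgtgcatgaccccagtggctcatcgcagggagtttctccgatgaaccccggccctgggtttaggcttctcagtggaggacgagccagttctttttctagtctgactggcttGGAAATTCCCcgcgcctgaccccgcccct
Icam1: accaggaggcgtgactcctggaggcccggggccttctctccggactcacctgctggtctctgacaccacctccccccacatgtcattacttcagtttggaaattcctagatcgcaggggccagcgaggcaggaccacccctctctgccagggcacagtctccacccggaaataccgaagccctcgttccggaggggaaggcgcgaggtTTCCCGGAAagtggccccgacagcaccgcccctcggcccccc
Socs3: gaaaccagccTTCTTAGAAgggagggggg
Tnfrsf1a: gcttccTTCCGTGAAattgacaaca

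The listed genes held 16540303 to 23923769 reads per brain, so that 1 read was worth 0.0418 to 0.0605 CPM, and the 10 genes rested on 30 to 2338 reads each per brain. Sample descriptions end in S1 to S10 for C57BL/6 brains and in S11 to S20 for *Winnie* brains, and what these numbers stand for is not stated. If they follow an order of handling, that order and genotype cannot be told apart. *Xist*, expressed from the inactive X chromosome, and *Ddx3y*, on the Y chromosome, went with the labelled sex in all 10 *Winnie* brains and against it in 9 of 10 C57BL/6 brains. No brain was regrouped, and values below are by genotype and, where sex is named, by label. Neuron and astrocyte markers marked the tissue as brain, with summed levels of 6274 to 7225 CPM and 4769 to 5466 CPM in C57BL/6 and 6332 to 6994 CPM and 4816 to 5519 CPM in *Winnie* brains.

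None of the 10 genes passed the threshold of the study's methods, a false discovery rate (FDR, the Benjamini-Hochberg adjusted p over all 17211 genes) under 0.001 with at least a 1.5-fold change, and 0 of 17211 genes did (0%). At an FDR under 0.05, 0 of the 10 were called, where 2.52% of all genes were (1.52% higher and 1.01% lower in *Winnie* brains). At an unadjusted p under 0.05 there were 3, *Il1r1*, *Il6ra* and *Nfkbia*, all with the higher mean in *Winnie* brains, where 17.6% of all genes were past that value in either direction with 9.53% higher and 8.08% lower. Tests were made with limma on log2(CPM + 0.5), and edgeR's quasi-likelihood test on the reads recovered from the CPM gave the same counts for the 10 genes, 0 and 3, where it called 2.99% and 18.6% of all genes. Log2 fold changes ranged from -0.15 (*Socs3*) to 0.42 (*Nfkbia*) with a median of 0.04, against a median of 0.00 over all genes, and 7 of the 10 were positive. The groups overlapped for every one of the 10 genes, while 0.0291% of all genes had no overlap. In 3 of the 10 genes, the same *Il1r1*, *Il6ra* and *Nfkbia*, all 10 *Winnie* brains lay above the C57BL/6 median, as did 4.62% of all genes.

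**Figure D1:**
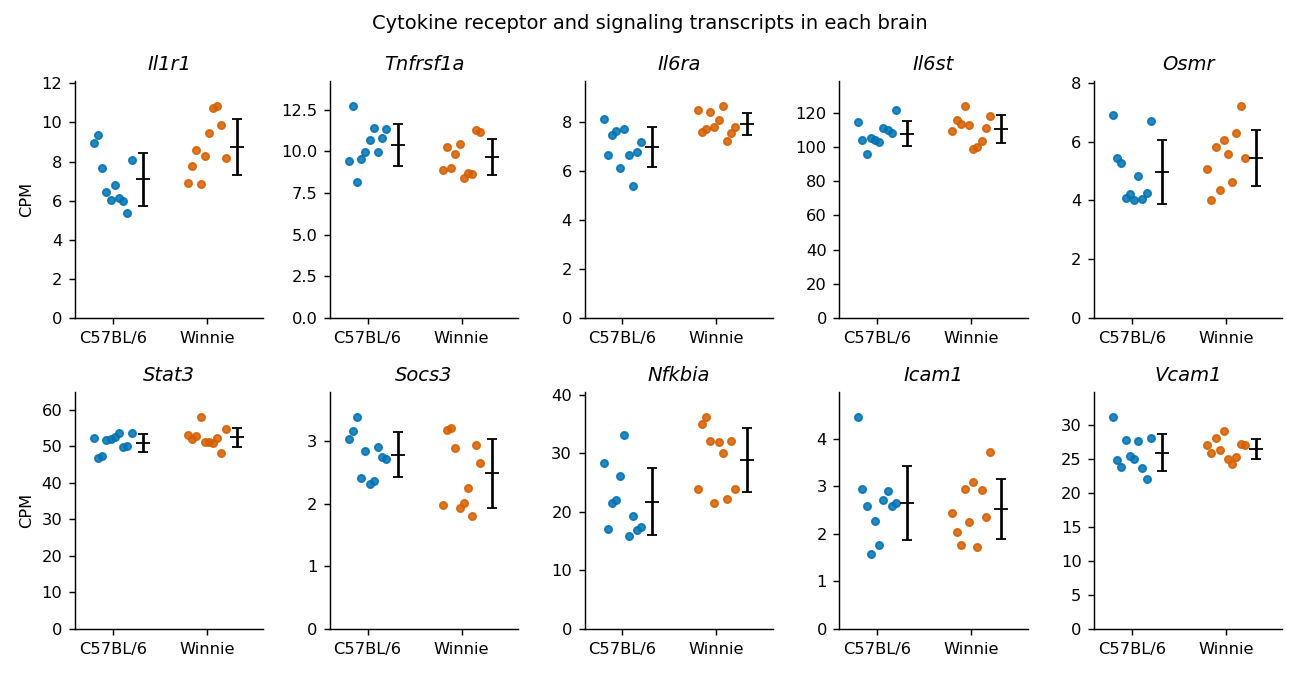
CPM of each of the 10 genes in each of the 20 brains (y axis from 0, a scale per gene). Points are brains, blue for C57BL/6 and orange for *Winnie*, and bars give the mean ± SD of 10 brains. The groups overlap in every panel, and *Il1r1*, *Il6ra* and *Nfkbia* have all 10 *Winnie* brains above the C57BL/6 median.

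*Il1r1* (ENSMUSG00000026072, chr1:40225080-40317257, plus strand, GRCm38) encodes the signaling receptor of interleukin-1. C57BL/6 brains ranged from 5.39 to 9.38 CPM with a median of 6.62, and *Winnie* brains from 6.86 to 10.8 CPM with a median of 8.44. Of the *Winnie* brains, 4 lay above the highest C57BL/6 brain, and 6 C57BL/6 brains lay below the lowest *Winnie* brain. The means were 7.09 ± 1.36 CPM (SD, n = 10) in C57BL/6 and 8.75 ± 1.43 CPM (SD, n = 10) in *Winnie* brains. On the log2 scale the difference was 0.29 (standard error 0.0959, 95% interval 0.09 to 0.49), and limma gave an unadjusted p of 0.00529 and an FDR of 0.0958. A two-sided permutation test over the brains gave p = 0.0158. The call at an FDR under 0.05 appeared, at 0.0449, when C57BL/6 replicate 2, the brain with the highest *Il1r1* of its group, was left out. The uncharacterized transcript *Gm38070* overlaps the gene on the same strand with its exons apart.

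*Il1r1* was also read by labelled sex. In labelled females, C57BL/6 brains ranged from 6.04 to 9.38 CPM with a median of 7.69 and *Winnie* brains from 6.86 to 8.61 CPM with a median of 7.76. In labelled males, C57BL/6 brains ranged from 5.39 to 8.07 CPM with a median of 6.14 and *Winnie* brains from 8.20 to 10.8 CPM with a median of 9.87. The labelled males of the 2 genotypes did not overlap, and among labelled females the *Winnie* range lay inside the C57BL/6 range. The share of all genes without overlap at 5 brains a group was not counted, so this gap cannot be weighed. The difference on the log2 scale was 0.57 in labelled males (limma FDR 0.0189) and 0.01 in labelled females (limma FDR 0.981). The test of the difference between them gave 0.56 (standard error 0.164, limma p = 0.00201, FDR 0.538), so it did not pass over all genes, of which 12 did. Because 9 of the 10 C57BL/6 labels went against *Xist* and *Ddx3y*, this comparison sets *Winnie* brains with *Ddx3y* RNA beside C57BL/6 brains that all had *Xist* RNA. With *Ddx3y* as a covariate, the genotype difference of *Il1r1* was 0.26 (limma FDR 0.0649). Read by their RNA, *Il1r1* ranged from 6.04 to 9.38 CPM in the 4 C57BL/6 and from 8.20 to 10.8 CPM in the 5 *Winnie* brains with *Ddx3y*, and from 5.39 to 8.07 CPM in the 6 and from 6.86 to 8.61 CPM in the 5 with *Xist*. These ranges overlap between genotypes in both cases. With an indicator of *Ddx3y* above *Xist*, a covariate chosen after seeing the data, *Il1r1* was 0.31 higher on the log2 scale in brains with *Ddx3y* (limma p = 0.000556, FDR 0.20) and the genotype difference was 0.26 (limma FDR 0.0670). A term for a genotype difference that depends on the indicator was 0.05 (limma p = 0.752).

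**Figure D2:**
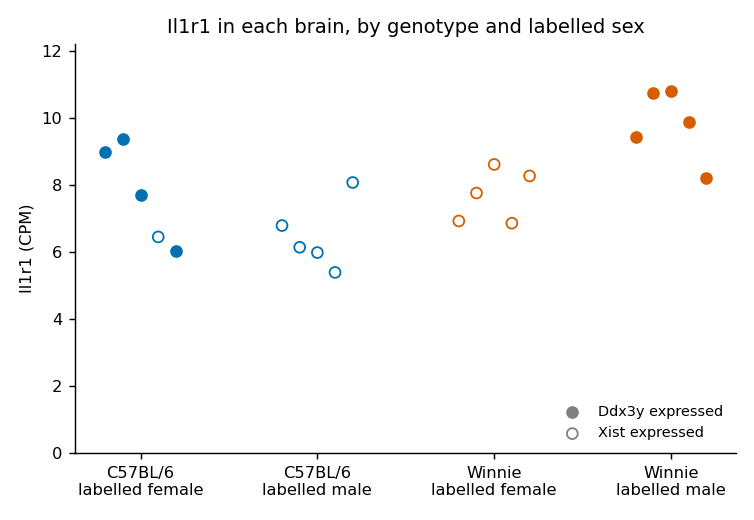
*Il1r1* in CPM (y axis from 0) in each brain, by genotype and labelled sex (5 brains in each column). Filled points express *Ddx3y* and open points express *Xist*. All 5 labelled male C57BL/6 points are open and all 5 labelled male *Winnie* points are filled.

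*Tnfrsf1a* (ENSMUSG00000030341, chr6:125349362-125362484, plus strand) encodes tumor necrosis factor receptor 1. C57BL/6 brains ranged from 8.19 to 12.7 CPM with a median of 10.3, and *Winnie* brains from 8.40 to 11.3 CPM with a median of 9.42. The *Winnie* range lay inside that of C57BL/6 brains, and 3 of the 10 *Winnie* brains were above the C57BL/6 median. The means were 10.4 ± 1.26 CPM and 9.66 ± 1.08 CPM (SD, n = 10 each), a log2 fold change of -0.10 (95% interval -0.24 to 0.05, limma FDR 0.494).

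*Il6ra* (ENSMUSG00000027947, chr3:89864059-89913196, minus strand) encodes the interleukin-6 binding subunit. C57BL/6 brains ranged from 5.38 to 8.14 CPM with a median of 7.0, and *Winnie* brains from 7.24 to 8.64 CPM with a median of 7.79. The lowest *Winnie* brain lay above 6 of the C57BL/6 brains, and the *Winnie* values were spread more narrowly, with a coefficient of variation of 5.73% against 11.8%. The means were 6.99 ± 0.827 CPM and 7.93 ± 0.455 CPM (SD, n = 10 each). Their log2 fold change was 0.18 (standard error 0.0653, 95% interval 0.05 to 0.31), with a limma p of 0.0103, an FDR of 0.132 and a permutation p of 0.00393. Medians of the labelled females and labelled males were 7.80 and 7.79 CPM in *Winnie* brains and 7.48 and 6.79 CPM in C57BL/6 brains. The exons of the antisense transcript *Gm42809* overlap those of *Il6ra*, and the strandedness of the counting is not given in the sources used here, so their reads may not be separable.

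*Il6st* (ENSMUSG00000021756, chr13:112464070-112510086, plus strand) encodes the subunit shared by the interleukin-6 family. Brains ranged from 95.7 to 122 CPM (median 107) in C57BL/6 and from 98.9 to 124 CPM (median 112) in *Winnie* mice, almost the same range. The log2 fold change was 0.04 (standard error 0.0436, 95% interval -0.05 to 0.12, limma FDR 0.734). *Osmr* (ENSMUSG00000022146, chr15:6813577-6874969, minus strand), the oncostatin M receptor gene, ranged from 4.03 to 6.91 CPM (median 4.55) and from 4.03 to 7.19 CPM (median 5.51). Its groups began at about the same level and 8 of 10 *Winnie* brains lay above the C57BL/6 median, but the log2 fold change of 0.12 (95% interval -0.09 to 0.33) had an FDR of 0.579 by limma.

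*Stat3* (ENSMUSG00000004040, chr11:100885098-100939540, minus strand) had the smallest spread of the 10 genes, with coefficients of variation of 4.79% in C57BL/6 and 4.88% in *Winnie* brains. It ranged from 46.7 to 53.6 CPM (median 51.9) in C57BL/6 and from 48.3 to 58.0 CPM (median 52.2) in *Winnie* brains. The log2 fold change was 0.04 (standard error 0.0376, 95% interval -0.04 to 0.12, limma FDR 0.613). Its exons overlap those of *Stat5a* on the opposite strand.

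*Socs3* (ENSMUSG00000053113, chr11:117966079-117970047, minus strand), the STAT3-induced inhibitor of JAK signaling, is a usual reading of active interleukin-6 signaling. C57BL/6 brains ranged from 2.32 to 3.39 CPM with a median of 2.79, and *Winnie* brains from 1.81 to 3.22 CPM with a median of 2.45, on 36 to 81 reads. In 5 *Winnie* brains it was below the lowest C57BL/6 brain, while the highest *Winnie* brain lay within the C57BL/6 range. The means were 2.79 ± 0.353 CPM and 2.49 ± 0.550 CPM (SD, n = 10 each), and the log2 fold change was -0.15 (95% interval -0.35 to 0.05, limma FDR 0.437). This gene had the lowest log2 fold change of the 10.

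*Nfkbia* (ENSMUSG00000021025, chr12:55489410-55492647, minus strand) encodes IkappaB-alpha, which holds NF-kappaB in the cytoplasm, and glucocorticoids are also known to induce it. C57BL/6 brains ranged from 15.9 to 33.2 CPM with a median of 20.4, and *Winnie* brains from 21.5 to 36.2 CPM with a median of 31.0. All 10 *Winnie* brains were above the C57BL/6 median and 5 C57BL/6 brains lay below the lowest *Winnie* brain. The means were 21.7 ± 5.76 CPM and 28.9 ± 5.50 CPM (SD, n = 10 each), a ratio of means of 1.33. The log2 fold change was 0.42 (standard error 0.139, 95% interval 0.13 to 0.71), the largest of the 10, with a limma p of 0.00742, an FDR of 0.113 and a permutation p of 0.0105. Without C57BL/6 replicate 6, the highest of its group at 33.2 CPM, the log2 fold change was 0.49 and the FDR 0.0430. With *Ddx3y* as a covariate the log2 fold change was 0.41 (limma FDR 0.127).

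*Icam1* (ENSMUSG00000037405, chr9:21015985-21028817, plus strand) and *Vcam1* (ENSMUSG00000027962, chr3:116109949-116129688, minus strand) encode the endothelial adhesion molecules. *Icam1* ranged from 1.57 to 4.46 CPM (median 2.62) in C57BL/6 and from 1.72 to 3.72 CPM (median 2.41) in *Winnie* brains, on 30 to 91 reads. Its range in *Winnie* brains lay inside that of C57BL/6 brains. The log2 fold change was -0.05 (95% interval -0.31 to 0.22, limma FDR 0.896), and without C57BL/6 replicate 1, the highest brain, it was 0.03. *Vcam1* ranged from 22.0 to 31.2 CPM (median 25.3) and from 24.3 to 29.2 CPM (median 26.8). Its *Winnie* range also lay inside the C57BL/6 range, and the log2 fold change was 0.03 (standard error 0.0525, 95% interval -0.07 to 0.14, limma FDR 0.784). Antisense transcripts with overlapping exons are annotated at both genes (*Gm47079* and *Gm43109*).

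**Figure D3:**
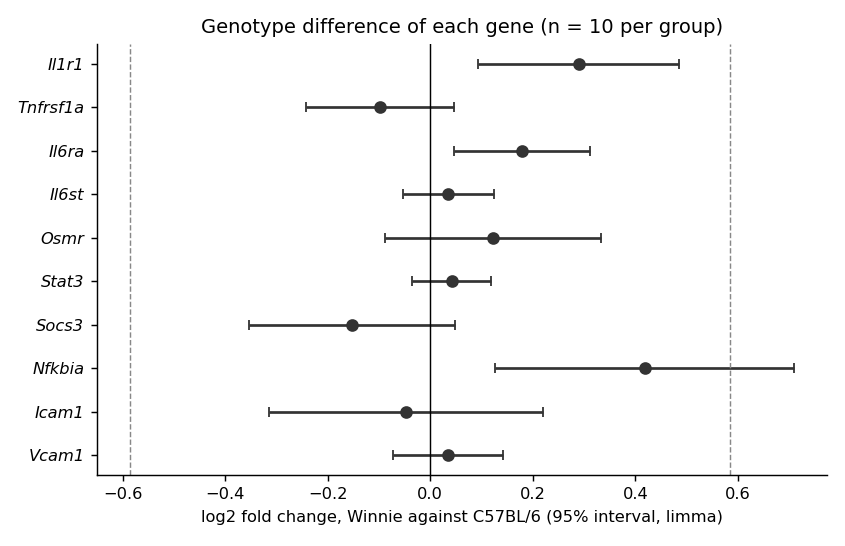
Log2 fold change (x axis, *Winnie* against C57BL/6) of each gene with its 95% interval from limma, 10 brains per group. Dashed lines mark a 1.5-fold change. The interval of *Nfkbia* crosses the upper line, and the intervals of *Il1r1*, *Il6ra* and *Nfkbia* lie above 0.

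The intervals set how large a change these brains allow. For 9 of the 10 genes the whole 95% interval lay inside a 1.5-fold change in either direction, with *Nfkbia* the exception. In bulk brain RNA, fewer cells of a type and less RNA per cell cannot be told apart. The means per kilobase of annotated exon in C57BL/6 brains, in CPM per kilobase, were highest for *Nfkbia* (13.5 ± 3.58), *Il6st* (9.72 ± 0.641), *Stat3* (5.35 ± 0.256), *Tnfrsf1a* (4.01 ± 0.487) and *Vcam1* (2.93 ± 0.305; SD, n = 10 each). They were lowest for *Il1r1* (1.11 ± 0.214), *Socs3* (0.964 ± 0.122), *Il6ra* (0.808 ± 0.0957), *Icam1* (0.607 ± 0.180) and *Osmr* (0.411 ± 0.0897). On this scale, neighbours in the order whose ranges over all 20 brains did not overlap were *Il6st* and *Stat3*, *Stat3* and *Tnfrsf1a*, and *Vcam1* and *Il1r1*. The closest neighbours were *Socs3* and *Il6ra*, with *Socs3* above in 13 of 20 brains, and *Nfkbia* stood above *Il6st* in 18 of 20. The shared interleukin-6 subunit gene was thus more abundant per length than both ligand-binding receptor genes, *Il6ra* and *Osmr*.

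The genes around the receptors were described from lists by role. For comparison, 1.52% of all genes were higher and 1.01% lower in *Winnie* brains at an FDR under 0.05. At an unadjusted p under 0.05 by limma, 9.53% were higher and 8.08% lower. The ligand and receptor genes of the interleukin-6 family had 8 of 12 listed, of which 0 passed an FDR under 0.05 in either direction and 1 was higher and 1 lower at an unadjusted p under 0.05, with a median log2 fold change of 0.02. *Lifr*, the leukemia inhibitory factor receptor gene, was 58.7 ± 6.38 CPM in C57BL/6 and 66.7 ± 6.04 CPM in *Winnie* brains (SD, n = 10 each; log2 fold change 0.18, limma FDR 0.0798). The ligand *Lif* was 0.695 ± 0.178 and 0.513 ± 0.189 CPM (log2 fold change -0.25, limma FDR 0.252). *Il6*, *Il11*, *Osm* and *Cntf* were not analysed here. All 24 JAK-STAT genes were listed, with 0 past the FDR and 1 higher at an unadjusted p under 0.05, *Pias1* (0.08, limma FDR 0.276), and a median of 0.00.

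Of the interleukin-1 and tumor necrosis factor arm, 28 of 36 genes were listed and 0 passed an FDR under 0.05, with 1 higher and 2 lower at an unadjusted p under 0.05 and a median of 0.05. *Myd88*, the adaptor of interleukin-1 receptors, was 4.76 ± 0.614 CPM in C57BL/6 and 4.07 ± 0.389 CPM in *Winnie* brains (log2 fold change -0.20, limma FDR 0.138), and *Il1a* had a log2 fold change of -0.30 (limma FDR 0.152). *Il1b*, *Il1rn*, *Il1r2*, *Il1rl1*, *Il18r1*, *Tnf*, *Lta* and *Ltb* were not analysed here. Of the 19 NF-kappaB genes, all listed, 1 rose at an FDR under 0.05 (1.52% of all genes did), 0 fell, and the median was 0.02. This was *Tnfaip3*, which encodes the NF-kappaB feedback inhibitor A20. It ranged from 3.81 to 4.93 CPM (median 4.29) in C57BL/6 and from 4.23 to 6.61 CPM (median 5.48) in *Winnie* brains, and 9 of 10 *Winnie* brains were above the C57BL/6 median. The difference of 0.30 on the log2 scale (standard error 0.0770) had a limma FDR of 0.0354, and the FDR rose above 0.05, up to 0.0669, in 10 of the 20 fits that left out a brain (C57BL/6 replicate 4, 5, 6, 8 or 9, or *Winnie* replicate 1, 3, 4, 7 or 10).

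Of 24 cytokine-induced target genes 19 were listed and 0 passed an FDR under 0.05, with 3 higher and 3 lower at an unadjusted p under 0.05 and a median of 0.02. *Serpina3n*, an acute-phase serpin gene of reactive astrocytes, was 22.0 ± 2.47 CPM in C57BL/6 and 25.6 ± 2.92 CPM in *Winnie* brains (log2 fold change 0.21, limma FDR 0.0738). *Bcl6*, a transcriptional repressor gene, had a log2 fold change of 0.19 (limma FDR 0.135). Of 18 leukocyte adhesion genes 15 were listed and 0 passed, with a median of -0.05. The integrin gene *Itga4*, whose product pairs in the receptor for VCAM1, had a log2 fold change of 0.19 (limma FDR 0.120), and the endothelial adhesion gene *Mcam* had -0.24 (limma FDR 0.167). Of 16 blood leukocyte markers, 3 were listed, and their summed level was 0.157 to 5.30 CPM (median 1.28) in C57BL/6 and 0.105 to 7.04 CPM (median 0.547) in *Winnie* brains.

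**Figure D4:**
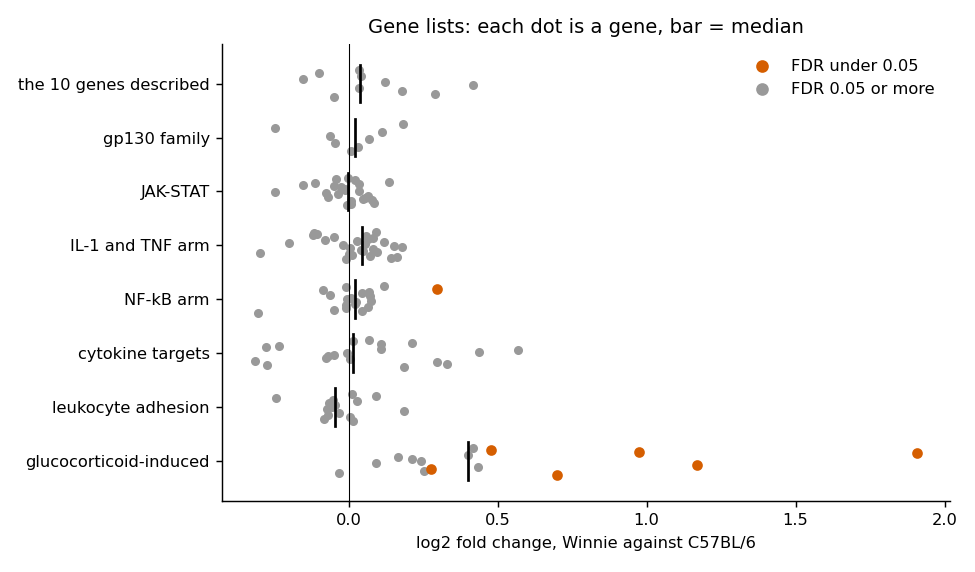
Log2 fold change (x axis, *Winnie* against C57BL/6) of the 10 genes and of the listed genes of 7 pathway lists, one row per list and one dot per gene; the cell type markers and the immediate-early genes are not drawn. Orange dots passed an FDR under 0.05 and grey did not, and the vertical bar in each row is its median. Among the rows drawn, the only orange dot outside the glucocorticoid-induced row is *Tnfaip3*.

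*Nfkbia* was compared with 15 glucocorticoid-induced genes, since *Sgk1* and *Ddit4* of that list were the genes most like it. Its 3 closest genes in the table, by the correlation of log2 values over 20 brains after each genotype's mean was removed, were *Sgk1* (r = 0.897), *Ddit4* (r = 0.861) and *Plekhf1* (r = 0.801). These genes were picked for their correlation, so no p is given for them. Over the 15 genes of the list the correlation with *Nfkbia* ranged from -0.57 (*Mt1*) to 0.90 (*Sgk1*) with a median of 0.47. The 5 genes with the largest fold changes were at 0.16 (*Plin4*), 0.26 (*Hif3a*), 0.90 (*Sgk1*), 0.65 (*Arrdc2*) and 0.60 (*Tsc22d3*). *Fkbp5* was at 0.08 and *Zbtb16* at 0.06. Within C57BL/6 brains the correlation of *Nfkbia* with *Sgk1* was 0.897, within *Winnie* brains 0.898, and without the 2 brains farthest from the median 0.874. *Sgk1* ranged from 39.2 to 126 CPM (median 64.6) in C57BL/6 and from 66.4 to 184 CPM (median 132) in *Winnie* brains. C57BL/6 replicates 1 and 6, the brains with the highest *Nfkbia* of their group, also had the highest *Sgk1*. The list was chosen with earlier results of these data known, so its count of calls is a description and not a test. Among the 15 glucocorticoid-induced genes, 6 rose at an FDR under 0.05, where 1.52% of all genes did, 0 fell, and the median log2 fold change was 0.40. The 5 with the smallest p were *Plin4* (log2 fold change 1.91), *Hif3a* (1.17), *Sgk1* (0.98), *Arrdc2* (0.70) and *Tsc22d3* (0.48), with limma FDRs of 0.0101 to 0.0374. With a brain left out, *Sgk1* lost its call in 12 of 20 fits, *Arrdc2* in 8, and *Plin4*, *Hif3a* and *Tsc22d3* in 0. The count was 3 to 6 in those fits and 0 in labelled females or labelled males alone. The 150 pairs of a gene of the set and a gene of this list were added after seeing the data. Of them, 4 had an adjusted permutation p under 0.05 for both r and rho, 3 of them with *Nfkbia*. The pairs with *Sgk1* and *Ddit4* had been picked from the whole table for their correlation, so their passing is not a test. The third was *Errfi1* (r = 0.713 and rho = 0.701, adjusted permutation p = 0.0184 and 0.0257). The adjustment kept the picked pairs among the 150, which lowers the adjusted p of the pairs ranked after them. The fourth was *Tnfrsf1a*, which ran against *Cdkn1a*, a cell cycle inhibitor gene (r = -0.756, adjusted permutation p = 0.0075; rho = -0.743, adjusted permutation p = 0.011). Within C57BL/6 brains that correlation was -0.717, within *Winnie* brains -0.834, and without the 2 brains farthest from the median -0.650. The part of these genes' regulators in the *Nfkbia* difference was not tested.

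**Figure D5:**
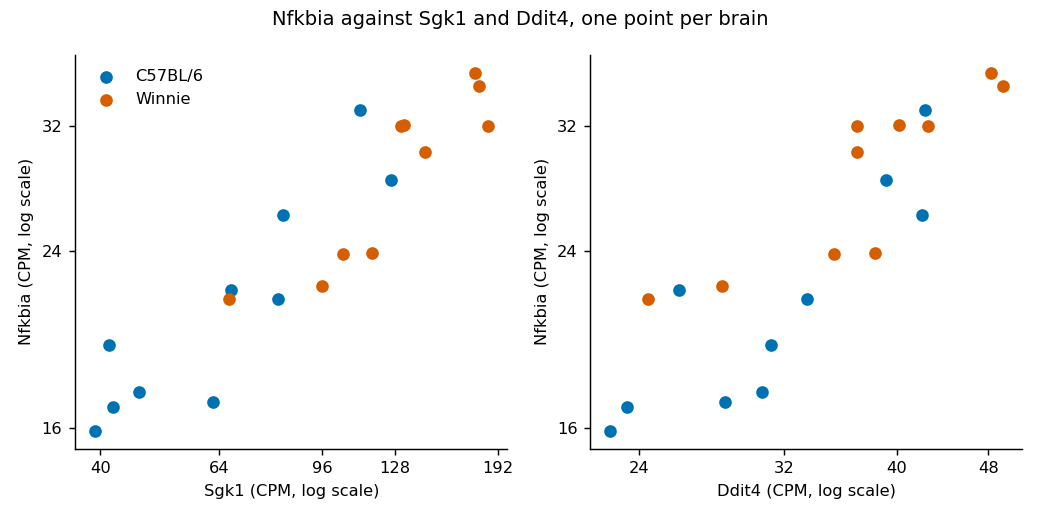
*Nfkbia* (y axis, CPM, log scale) against *Sgk1* (left) and *Ddit4* (right; x axes, CPM, log scale), one point per brain, blue for C57BL/6 and orange for *Winnie*. Within each genotype the points run from lower left to upper right (r = 0.897 and 0.898 for *Sgk1*).

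The 10 genes did not move as a unit across brains. Over the 45 pairs, correlations of log2 values with genotype means removed ranged from -0.44 to 0.67, and 0 passed an adjusted p under 0.05 by permutation. The highest pair was *Il1r1* and *Osmr* (r = 0.672, permutation p = 0.00224, adjusted p = 0.101; Spearman's rho = 0.680, permutation p = 0.00185, adjusted p = 0.0833). Within C57BL/6 brains this correlation was 0.804 and within *Winnie* brains 0.501, and without the 2 brains farthest from the median it was 0.612. *Il6st* and *Stat3*, consecutive steps of a pathway, came next (r = 0.601, permutation p = 0.00657, adjusted p = 0.148; rho = 0.558, permutation p = 0.0129, adjusted p = 0.176). The genes closest to the others were, by the same measure over 20 brains, *Arhgap21* to *Il1r1* (r = 0.803), *Jade2* to *Il6ra* (0.755), *Sema6d* to *Il6st* (0.900), *Amhr2* to *Osmr* (0.809), *Slc44a2* to *Tnfrsf1a* (0.858), *Gadd45g* to *Socs3* (0.839), *Pik3r3* to *Stat3* (0.839), *Fam184a* to *Icam1* (0.824) and *Zdbf2* to *Vcam1* (0.792). *Socs3* also followed the clock repressor gene *Ciart*, at 0.901 within *Winnie* and 0.514 within C57BL/6 brains, and this difference was not tested.

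Markers of the cells that carry these receptors were read beside the results. Of 15 endothelial markers 1 rose and 1 fell at an FDR under 0.05, and their summed level was 336 to 457 CPM (median 369) in C57BL/6 and 407 to 479 CPM (median 440) in *Winnie* brains. Their median log2 fold change was 0.03, with 10 higher and 5 lower, so the sum does not describe most of them. The most abundant of the 15, the glucose transporter gene *Slc2a1*, was 95.6 ± 15.4 CPM in C57BL/6 and 130 ± 12.3 CPM in *Winnie* brains (SD, n = 10 each). *Slc2a1* had a log2 fold change of 0.45 (limma FDR 0.00551) and the tight junction gene *Cldn5* of -0.47 (limma FDR 0.00331). Of 9 mural markers 1 rose (*Abcc9*, 0.29, limma FDR 0.0468), and of 10 astrocyte markers 1 rose (*Gjb6*, 0.22, limma FDR 0.0384), calls that were lost in 14 and 11 of the 20 fits that left out a brain. Of 12 microglial markers 0 passed an FDR under 0.05 and 5 were lower at an unadjusted p under 0.05, with a median of -0.10 and a summed level of 377 to 420 CPM (median 394) in C57BL/6 and 343 to 444 CPM (median 362) in *Winnie* brains. Of 10 fibroblast markers 1 rose (*Slc22a6*, 0.39, limma FDR 0.0216, or 0.0538 without C57BL/6 replicate 5), and of 5 erythroid, 10 choroid plexus and 8 neuron markers 0 passed. At an unadjusted p under 0.05, 5 endothelial, 3 mural, 1 astrocyte and 1 fibroblast marker were higher in *Winnie* brains. Lower, beside the 5 microglial markers, were 1 endothelial, 3 astrocyte, 2 fibroblast and 1 erythroid marker. Over all genes 9.53% were higher and 8.08% lower at that value. The part of these cell types in the values of the 10 genes was not tested.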

How the data were processed

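The authors sequenced polyA libraries of brain RNA from individual mice, ran RNAsik against GRCm38 and assigned reads to genes by FeatureCounts; the submitters' notes also name limma. They deposited CPM for 17211 genes, made with Degust. The aligner, the strandedness and the filter on low counts are not given in the sources used here. Every deposited value was a whole number of reads to within 0.001 CPM (100% of values), so reads were recovered from the smallest step in each brain. Intervals from reads cover counting error only; intervals of fold changes reflect how mice differed.

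Samples were grouped by labelled genotype, 10 in each group. The test was limma 3.58.1 (R 4.3.3), fitted to log2(CPM + 0.5) with trend and robust variances and no covariate, and FDR is taken over all genes. A fold change on this scale understates the change of low genes. The study's methods name edgeR; here edgeR 4.0.16 ran on the recovered reads as an alternative, calling 514 genes at an FDR under 0.05. Permutation tests were two-sided with 100000 resamples (Python 3.11.15, numpy 2.4.6, scipy 1.17.1, pandas 2.3.3, matplotlib 3.10.9). The fits were tested on simulated data. As alternatives, the pseudocount was 0.1 or 1, or genes needed a mean of 1 CPM; others were median-ratio and quantile scaling, labelled sex or *Ddx3y* as a covariate, a replicate block, labelled females or males alone, each brain left out, and edgeR, DESeq2 1.42.0 and voom on the recovered reads.

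The members and lists were chosen with earlier results of these data known, and the correlations with glucocorticoid-induced genes were added after seeing the data. Named genes are the 10 members, for each list those with an FDR under 0.05 (at most 5 with the smallest p) or, where none, the 2 with the smallest p, and for each member its closest genes; *Ciart* was singled out after its values were seen. A further gene that this rule names is not reported here. Another list, 12 immediate-early genes, had 0 genes at an FDR under 0.05 and 1 lower at an unadjusted p under 0.05, *Npas4* (log2 fold change -0.52, limma FDR 0.212), beside *Ier2* (-0.18, limma FDR 0.650). Coordinates come from GENCODE M21 (GRCm38), which matched 17128 genes. Promoter motifs were searched with chromosome 18 left out. *Muc2* was not analysed here.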

Additional observations from a re-analysis of the deposited data

Results flagged for a closer look

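*Icam1* in C57BL/6 replicate 1, at 4.46 CPM, stood apart from the other brains of its group, the nearest of which was at 2.96 CPM. The gap was 0.521 of the group's whole range, above Dixon's 95% critical value for 10 samples. Of the 20 groups examined (10 genes in each genotype) this was 1, and chance flags about 1 in 20.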

How the results depend on the processing

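All alternatives were run. The count of the 10 genes past the threshold of the study's methods was 0 under each. At an FDR under 0.05 it was 0, except for 1 in labelled males alone (*Il1r1*) and 0 to 1 when a brain was left out (*Il1r1* without C57BL/6 replicate 2, *Nfkbia* without C57BL/6 replicate 6). At an unadjusted p under 0.05 it was 3, except for 1 in labelled females alone (*Il6st*). Over all genes, the count at the study's threshold was 7 in labelled males alone, 10 with DESeq2 and 0 to 2 when a brain was left out, against 0. At an FDR under 0.05 it was 6 in labelled females alone, 61 in labelled males alone, 968 with DESeq2 and 169 to 694 when a brain was left out, against 434. Log2 fold changes changed sign for *Il6st* (-0.0632), *Stat3* (-0.0105) and *Icam1* (0.0892) in labelled males alone and for *Osmr* (-0.0262) in labelled females alone. That of *Icam1* was -0.110 to 0.0296 when a brain was left out. *Il1r1*, *Il6ra*, *Tnfrsf1a*, *Socs3*, *Nfkbia* and *Vcam1* kept their direction in all 33 alternatives, with *Il1r1* at 0.0102 in labelled females alone. Labelled sex as a covariate, the replicate block and the minimum of 1 CPM cannot change a fold change here. A further 20 alternatives each left out 1 brain. The subsets by labelled sex hold 5 brains a group. In labelled males, all C57BL/6 brains had *Xist* RNA and all *Winnie* brains had *Ddx3y* RNA. In labelled females, the C57BL/6 brains except replicate 4 had *Ddx3y* RNA and all *Winnie* brains had *Xist* RNA. Genotype and this RNA difference therefore cannot be told apart in labelled males and hardly in labelled females. The cause of the other changes was not tested.

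With the replicate number as a block, 227 genes had an FDR under 0.05, and of the 10 genes 0 did and 3 had an unadjusted p under 0.05. Same-numbered brains did not deviate together (correlations -0.29 to 0.15, over 0.1 in 2 of 10 pairs), so the number does not pair them. Genes on fewest reads (*Icam1*, *Socs3*) are those least precisely counted.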
